A study of Homo sapiens with 12 samples.

Results

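The imprinted DLK1-DIO3 region of chromosome 14 encodes one of the largest groups of miRNAs of the human genome, and 29 of the 372 miRNA assays of a miScript miRNA PCR Array read a member of it. The members were taken by name from the list of mature miRNAs of the region, any arm. No value decided which assay was taken, but the choice was made with earlier results of these data known. They cover 27 numbered miRNAs, of which 10 assays lie on the miR-127/miR-136 side and 19 on the miR-379/miR-410 side of the region.

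In an imprinted region only the chromosome of 1 parent is read. The DLK1-DIO3 miRNAs come from the maternal chromosome, where long non-coding transcripts (MEG3, an antisense transcript of RTL1, MEG8 and MEG9) carry many hairpins in a row, which are cut into mature miRNAs. miR-770 lies within MEG3, and miR-431, miR-433, miR-127, miR-432 and miR-136 lie opposite to RTL1. A mature miRNA is held by an Argonaute protein such as AGO2 and finds its target mRNAs mainly through its seed, bases 2 to 8 from the 5′ end.

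The study asked how the level of AGO2, and lenalidomide, alter the steady-state levels of miRNAs in multiple myeloma cells. Both cell lines came from OCI-My5, an established human myeloma line. My5.LV cells, infected with the empty lentiviral vector, are CRBN-low and resist lenalidomide, whereas My5.CRBN cells carry a lentivirus with His-tagged CRBN, the protein that lenalidomide binds, and are sensitive to it; the infected cells were sorted by GFP. Total RNA came from 12 conditions, with 1 array each: each line was un-treated, treated with AGO2-sh72 (an shRNA against AGO2 in the pLKO.1 lentivirus), treated with AGO2 cDNA (in a pCDH lentivirus), treated with 10 μM lenalidomide for 72 h or for 120 h, or treated with AGO2 cDNA and 10 μM lenalidomide for 72 h. RNA of the sh72 and AGO2 cDNA treated cells was taken at 3 days. Whether the un-treated cells had received an empty pLKO.1 or pCDH virus is not given in the sources used here, so effects of infection and selection cannot be told apart from those of the shRNA or the cDNA. No condition is labelled as a control with the solvent DMSO, or as un-treated cells kept for 72 h or 120 h. Effects of solvent and of time in culture thus cannot be told apart from those of lenalidomide. AGO2 itself is not read by these assays, and its knockdown was not checked here.

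A well gives a threshold cycle (Ct), the PCR cycle at which its signal crosses a threshold, so 1 cycle more stands for about 2 fold less RNA. A Ct above 35 was set to 35, and the level of a miRNA is the mean Ct of 6 small-RNA control wells minus its own Ct, on the log2 scale. The mean Ct of the control wells lay between 18.7 and 21.9 over the 12 arrays, and each array found 324 to 367 of the miRNAs, and 23 to 29 of the members, under a Ct of 35. Repeated control wells of 1 array differed by a root mean square of 0.187 cycles (reverse transcription control) and 0.383 cycles (PCR control). As nothing says that any condition was cultured more than once, a fold change between a pair of arrays has no replicate check, and the SD of the 6 control wells in that comparison is given as its spread.

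The mature sequences below, from RefSeq on GRCh38.p14, are those the results turn on, with the seed in capitals. All 29 members matched an entry, all lie on the plus strand, and they span chr14:100852409-101065981, or 213.6 kilobases. miR-410-3p (chr14:101065961-101065981) is the last of the 29 members along the chromosome, and miR-409-3p (chr14:101065346-101065367) its nearest neighbour on the array, 594 bases away. Both are shown because the first stood apart after AGO2-sh72 and the second did not.
miR-410-3p: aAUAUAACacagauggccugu
miR-409-3p: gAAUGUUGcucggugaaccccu
The next 6 are the members called lower after 120 h of lenalidomide in the fit over both lines described below, in order along the chromosome.
miR-431-5p: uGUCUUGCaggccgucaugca
miR-370-3p: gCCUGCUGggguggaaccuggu
miR-379-5p: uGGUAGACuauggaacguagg
miR-300: uAUACAAGggcagacucucucu
miR-382-5p: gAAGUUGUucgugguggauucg
miR-323b-5p: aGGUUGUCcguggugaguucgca
The last 4 are near copies of a member, miR-381-3p of miR-300 and the miR-376 family of each other.
miR-381-3p: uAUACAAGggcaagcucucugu
miR-376c-3p: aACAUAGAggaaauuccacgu
miR-376a-3p: aUCAUAGAggaaaauccacgu
miR-376b-3p: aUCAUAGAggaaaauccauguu
The 29 members have 27 distinct seeds. Only miR-300 and miR-381-3p (AUACAAG), and miR-376a-3p and miR-376b-3p (UCAUAGA), share one, and the 6 members called lower have 6 different seeds. miR-411-5p, at least 3 fold lower in both lines but not called, has a seed that differs from that of miR-379-5p only in its first base. The GC content of the 6 called members runs from 45.5% to 68.2%, against a median of 50.0% over the members and 47.6% over the 330 assays with a RefSeq sequence.

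Most members were of low level in these cells. The mean Ct over the 12 arrays ran from 24.7 to 34.4, with a median of 30.4 over the members against 28.4 over all 372 assays, and 4 of the members (13.8%) had a mean Ct under 28, against 45.2% of all assays. miR-770-5p (24.7), miR-370-3p (25.2) and miR-493-3p (26.8), all on the miR-127/miR-136 side, had the lowest mean Ct. miR-377-5p (34.4), miR-337-5p (34.2) and miR-136-5p (34.1) had the highest. The efficiencies of the assays are not known, so this order is one of Ct and not of molecules. In 23 members the Ct was under 35 on all 12 arrays, and miR-136-5p, miR-299-5p, miR-337-5p, miR-377-5p, miR-485-5p and miR-539-5p reached 35 on at least 1 array. Both arms were measured for 2 hairpins. For miR-127 the Ct of the arms lay close (mean 30.5 for miR-127-3p and 30.1 for miR-127-5p), whereas miR-377-3p (31.98) was under 35 on all 12 arrays and miR-377-5p on 5.

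Without treatment the members were at like levels in the 2 cell lines. Of 29 members, 0 were higher in My5.CRBN cells, compared with My5.LV cells, by 3 fold or more and 0 were lower by as much, where 2.23% and 1.96% of all assays were. The median log2 difference was -0.09 over the members and -0.07 over all assays. Over the 6 treatments, limma called 0 of 23 members higher and 0 lower in My5.CRBN cells, against 4.46% and 2.23% of the 314 assays tested, and 0 members reached an unadjusted p of 0.05 in either direction, where 8.60% of the assays did upwards and 5.41% downwards. limma was fitted with treatment and cell line as terms over the 12 arrays, for the assays under Ct 35 on all of them, with Benjamini-Hochberg adjustment over the 314. In that fit the 2 lines are the samples of each treatment, and the 6 treatments those of each line. Its p-values set an effect against how far the line difference varies between treatments, not against the error of repeated cultures.

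**Figure D1:**
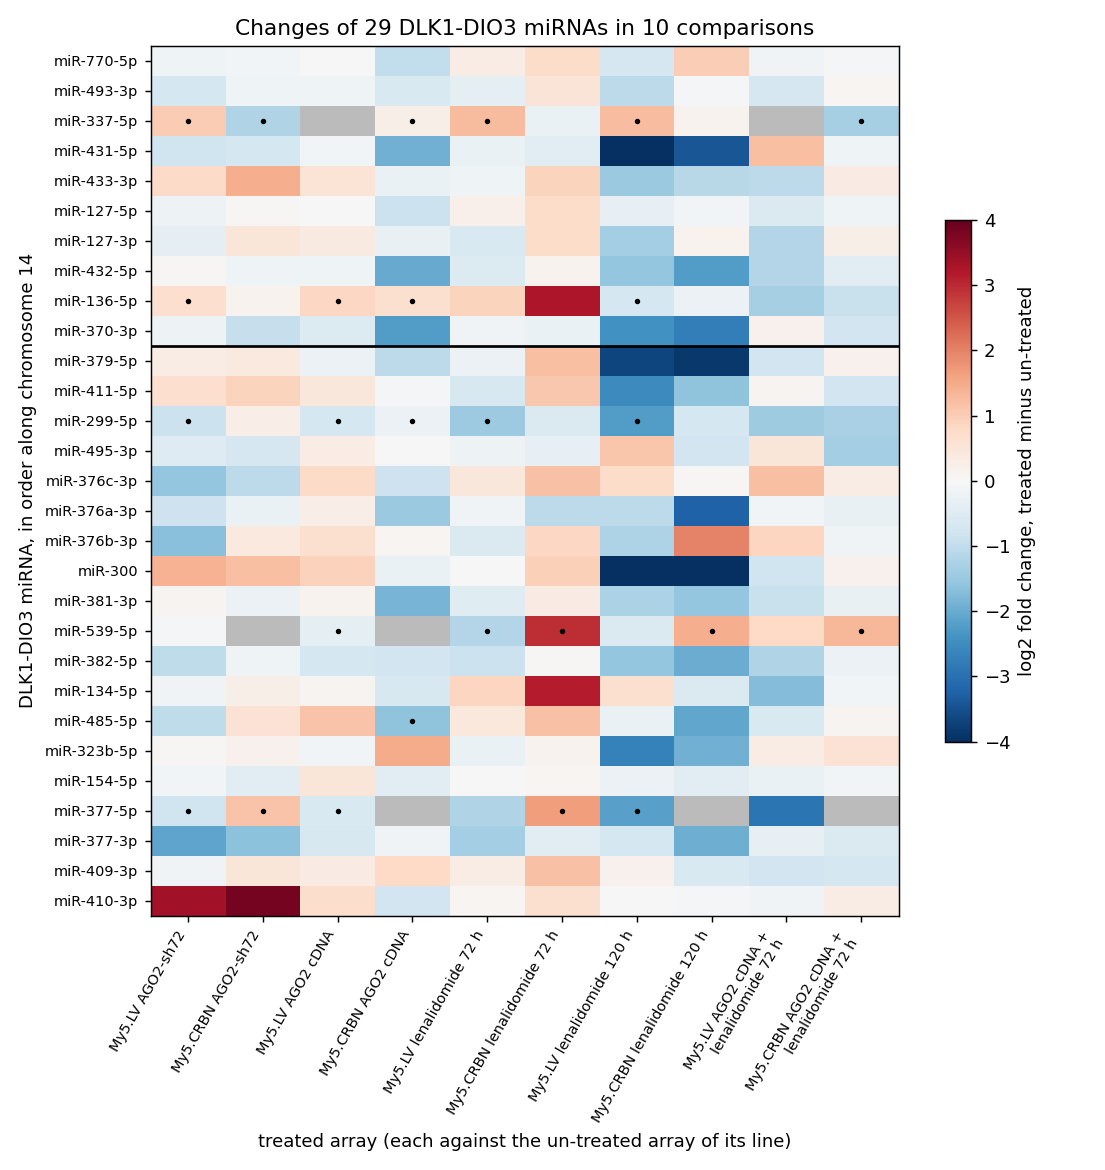
Log2 fold change of the 29 members (rows, in order along chromosome 14) in each treated array against the un-treated array of its line (columns). Black dots mark a Ct of 35 on 1 of the 2 arrays, grey cells a Ct of 35 on both, and the line parts the 10 assays of the miR-127/miR-136 side from the 19 of the miR-379/miR-410 side. Colours stop at 4 on either side. The red cells of miR-410-3p stand in the columns of AGO2-sh72, and the blue cells of miR-431-5p, miR-370-3p, miR-379-5p and miR-300 in those of lenalidomide for 120 h.

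After AGO2-sh72 few of the members passed 3 fold in either cell line with the 6 control wells as normalizer. In My5.LV cells 1 of 29 members was higher by 3 fold or more and 2 were lower by as much, where 1.93% of all assays were higher and 24.2% lower. In My5.CRBN cells 1 of 28 was higher and 1 lower, where 1.67% of all assays were higher and 13.3% lower. For My5.LV cells the log2 fold changes had a median of -0.17 over the members and -0.81 over all assays, and 0.08 against -0.58 in My5.CRBN cells. Relative to all assays the members' median was thus 0.64 and 0.66 higher, a distance that does not depend on which control normalizes the arrays. The counts do depend on it. With RNU6-2 alone 10 (My5.LV) and 2 (My5.CRBN) members were lower, with medians of -1.15 and -0.37 against -1.79 and -1.03 over all assays. With the mean of all detected miRNAs 4 were higher and 0 lower in each line (medians 0.69 and 0.63, against 0.05 and -0.03 over all assays).
Assays of like Ct outside the region were also closer to 0 than all assays. These were the assays with a Ct of 26 to 35 in the un-treated array of the other line. Of them 16.1% (of 223, My5.LV) and 10.1% (of 207, My5.CRBN) were lower by 3 fold or more, with medians of -0.41 and -0.14. The members were not held to this range, and miR-770-5p and miR-370-3p lay under 26 in both un-treated lines.

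miR-410-3p was the exception. Its Ct in My5.LV cells was 30.5 in un-treated, 27.97 in AGO2-sh72 treated and 30.8 in AGO2 cDNA treated cells, 30.7 and 29.9 after 72 h and 120 h of lenalidomide, and 29.2 with AGO2 cDNA and lenalidomide. In the other line, My5.CRBN, the same conditions gave 31.1, 26.9, 32.9, 28.7, 29.1 and 30.3. On the level scale the 2 sh72 arrays stood at -7.00 and -6.42, and the other 10 arrays between -11.04 and -9.62. As miR-410-3p was picked for its rise with sh72, this gap follows from that choice. How many of all assays part the arrays in the same way was not counted.
The log2 fold change of miR-410-3p after AGO2-sh72 was 3.37 in My5.LV cells (10.4 fold, SD of the control wells 0.51) and 3.84 in My5.CRBN cells (14.3 fold, SD 0.30). It was the only one of 356 assays with a fold in both lines that was at least 3 fold higher in both. Since miR-410-3p was singled out for this change, no test of it is given. With other normalizers the values lay between 2.39 (RNU6-2 alone) and 4.24 (mean of all detected miRNAs) in My5.LV cells and between 3.39 and 4.39 in My5.CRBN cells. In the 8 other treated arrays its log2 fold change lay between -0.78 and 0.70.

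The nearest neighbours of miR-410-3p stood near or below their un-treated levels. miR-409-3p, 594 bases away, had a Ct of 31.7 and 32.6 in My5.LV cells and of 32.4 and 31.6 in My5.CRBN cells, without and with AGO2-sh72. Its log2 fold changes were -0.14 and 0.49, and the limma estimate over both lines was 0.17 (95% interval -1.18 to 1.53). Whether miR-409-3p differs from miR-410-3p was not tested.
miR-377-3p, the nearest member on the other side of miR-409-3p, went the other way. Its Ct rose from 30.8 to 33.7 in My5.LV cells and from 32.1 to 33.4 in My5.CRBN cells, and it was the 1 member at least 3 fold lower in both lines, where 37 of all assays were. limma called it lower (log2 fold change -1.88, SE 0.69, adjusted p = 0.037), 1 of 22 members against 40.4% of the 314 assays. The call ends with the mean of all detected miRNAs as normalizer (-1.17), with a Ct cap of 32 (-0.36) or without the cell line term, and its adjusted p lay between 0.00216 and 0.727 over both other normalizers, the cap of 32 and the fit of all assays.
It also ends, with 0 members called lower, when any 1 of the 2 un-treated or the 2 sh72 arrays is left out, where 1 array then stands for its group and 8.92% to 35.4% of the assays were called lower. Of the other members, miR-376b-3p passed 3 fold downwards in My5.LV (-1.67) and not in My5.CRBN cells (0.39).
The 22 members counted for AGO2-sh72 leave out miR-410-3p, which got no test, whereas the 314 assays include it. limma called 0 of these 22 members higher after AGO2-sh72, where 0.955% of the 314 assays were. At an unadjusted p of 0.05 there were 2 (2.87% of the assays), miR-300 (1.30, SE 0.52, adjusted p = 0.0575) and miR-433-3p (1.11, SE 0.52, adjusted p = 0.0981). Both were higher in both lines, miR-300 by 1.38 and 1.22 and miR-433-3p by 0.77 and 1.46. With the mean of all detected miRNAs as normalizer 2 members were called higher, where 6.37% of the 314 assays were.

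**Figure D2:**
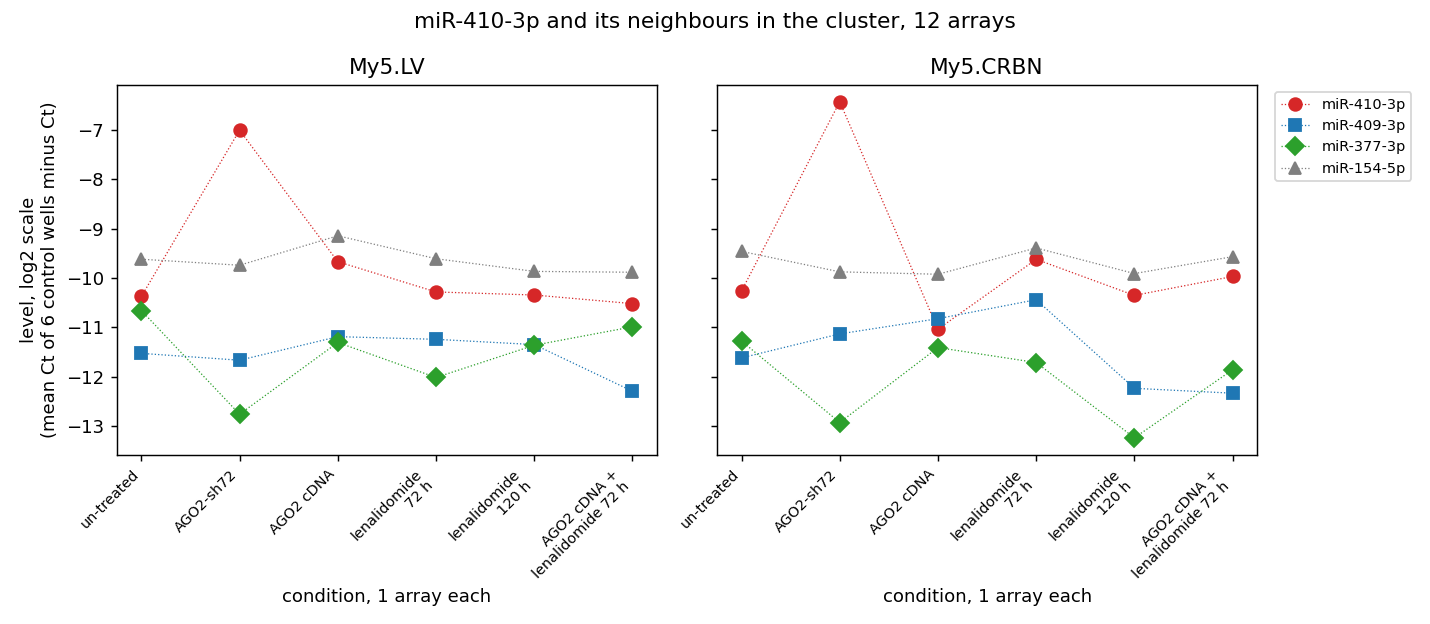
Level (mean Ct of 6 control wells minus Ct, log2 scale) of miR-410-3p, miR-409-3p, miR-377-3p and miR-154-5p in the 6 conditions of My5.LV (left) and My5.CRBN cells (right), 1 array per point. Dotted lines only join the points of a miRNA. miR-410-3p stands at -7.00 and -6.42 with AGO2-sh72 and between -11.04 and -9.62 elsewhere.

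The bases of miR-410-3p were then set against those of the shRNA. The antisense strand of sh72, the strand that pairs with AGO2 mRNA, and miR-410-3p hold the same run of 8 bases, in capitals.
sh72 antisense strand: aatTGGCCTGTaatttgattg
miR-410-3p: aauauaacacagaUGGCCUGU
The run takes bases 14 to 21 of miR-410-3p, its 3′ end, and bases 4 to 11 of the 21 of the sh72 strand; the seed of miR-410-3p lies outside it. Of the 330 assays with a RefSeq sequence, miR-410-3p was the only one with a run of 8 or more bases in common with this strand, where the median of the longest run was 4. It was also the only one whose 3′ end shared 8 or more bases with either strand of sh72 or of the 4 other AGO2 shRNAs the study lists (sh70, sh71, sh73 and sh74), where the longest 3′ run was 5 to 7 bases. Runs of 8 or more bases at any position were found with other strands too. There was 1 such assay each for sh70 antisense, sh71 sense, sh72 sense, sh73 sense and sh74 antisense, and 2 for sh73 antisense.
The assays with the next longest 3′ runs did not change alike. miR-92a-3p shares 7 bases at its 3′ end with the same strand, inside the run of miR-410-3p, and its log2 fold change was -1.13 (My5.LV) and -0.97 (My5.CRBN). miR-34b-5p shares 6 and was at 1.23 and 1.39, and miR-195-5p shares 6 and was at -1.42 and -1.02. A longer run that does not reach the 3′ end, 9 bases of let-7g-3p in common with the sense strand, went with -0.28 and -0.23.
The primers of the assays are not given in the sources used here. The shared bases are a description of the sequences, and their part in the change of miR-410-3p was not tested.

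After AGO2 cDNA the members were near their un-treated levels in My5.LV cells, whereas some were lower in My5.CRBN cells. In My5.LV cells 0 of 28 members passed 3 fold upwards and 0 downwards, where 6.04% of all assays were higher and 0.824% lower, and the members' log2 fold changes ran from -0.69 to 1.13. In My5.CRBN cells 0 of 27 were higher and 5 lower, where 2.28% of all assays were higher and 6.55% lower, and the median was -0.60 over the members against -0.17 over all assays. The 4 of these 5 that were measured on both arrays were miR-370-3p (-2.23), miR-432-5p (-2.03), miR-431-5p (-1.91) and miR-381-3p (-1.87), the first 3 on the miR-127/miR-136 side. miR-485-5p reached a Ct of 35 and was at -1.61 or below on the log2 scale. That array had the fewest miRNAs under Ct 35 (324) and the highest Ct of the control wells (21.9), and the SD of the control wells was 0.56; their part in the result was not tested. limma called 0 of 23 members higher and 0 lower after AGO2 cDNA, as it did of all 314 assays (0%), and 1 member, miR-370-3p, was lower at an unadjusted p of 0.05 (-1.39, adjusted p = 0.161), where 5.73% of the assays were. Without the My5.LV AGO2 cDNA array 3 members and 5.41% of the assays were called lower; the group is then the My5.CRBN array alone, taken to vary like the other treatments.

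After 72 h of lenalidomide the members were near their un-treated levels in the resistant line. In My5.LV cells 0 of 29 passed 3 fold upwards and 0 downwards, where 0.549% of all assays were higher and 0.549% lower, and the members ran from -1.47 to 1.28. In My5.CRBN cells 4 of 29 were higher and 0 lower, where 10.1% of all assays were higher and 0.272% lower. Assays of like Ct outside the region were higher at 14.1% (of 213), so the members' 13.8% is close to theirs. The median was 0.72 over the members, 0.58 over those assays of like Ct and 0.32 over all assays.
The largest values were those of miR-136-5p and of miR-134-5p, known for its work at neuronal synapses. The Ct of miR-136-5p was 34.6 without treatment and 29.6 after 72 h in My5.CRBN cells (log2 fold change 3.24), against 34.9 and 34.2 in My5.LV cells (0.88). miR-134-5p went from a Ct of 29.8 to 25.0 in My5.CRBN cells (3.13) and from 28.9 to 28.2 in My5.LV cells (0.87). miR-539-5p and miR-377-5p, at a Ct of 35 without treatment, were higher by at least 2.96 and 1.66 on the log2 scale.
This array had the most miRNAs under Ct 35 (367) and was the only one with all 29 members under it. At 120 h miR-136-5p and miR-134-5p were back near their un-treated levels in My5.CRBN cells (-0.23 and -0.57). limma called 0 of 23 members higher and 0 lower at 72 h, as of all 314 assays (0%), and at an unadjusted p of 0.05 there was 1 (4.14% of the assays were higher), miR-134-5p (2.00, SE 0.68, adjusted p = 0.923).

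After 120 h of lenalidomide a subset of the members was lower in both lines, the resistant one included. In My5.LV cells 8 of 29 members (27.6%) passed 3 fold downwards and 0 upwards, where 14.6% of all assays were lower and 4.42% higher. In My5.CRBN cells 11 of 28 (39.3%) were lower and 1 higher, where 11.3% of all assays were lower and 5.23% higher. For My5.LV cells the log2 fold changes had a median of -1.04 over the members and -0.03 over all assays, and -0.73 against -0.14 in My5.CRBN cells.
Among assays of like Ct outside the region, 18.5% of 222 were lower in My5.LV and 10.5% of 210 in My5.CRBN cells. In both lines at once 6 of 28 members were at least 3 fold lower, miR-300, miR-323b-5p, miR-370-3p, miR-379-5p, miR-411-5p and miR-431-5p, against 24 of all 356 assays with a fold in both lines. In the other direction 0 members were higher in both lines, against 6 of the 356.

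limma called 6 of 23 members lower and 0 higher at 120 h, where 8.28% of the 314 assays were called lower and 3.18% higher. They were 5 of the 6 named above, without miR-411-5p (-2.08, SE 0.75, adjusted p = 0.0908), and miR-382-5p. At an unadjusted p of 0.05 there were 11 lower and 0 higher, where 15.9% of the assays were lower and 7.32% higher. The count of 6 became 10 when either AGO2 cDNA array was left out, with 12.4% of the assays called lower, and 4 without the un-treated My5.LV array, with 4.78%.
Of these 6, miR-300, of the middle of the miR-379/miR-410 side, had the largest fall. Its Ct in My5.LV cells was 27.97 without treatment, 28.2 at 72 h and 31.7 at 120 h, and in My5.CRBN cells 28.6, 25.9 and 31.1. Its log2 fold change at 120 h was -4.28 (My5.LV) and -4.61 (My5.CRBN), and -4.45 over both (SE 0.52, adjusted p = 4.12e-05).
Its levels at 120 h, -12.09 and -12.40, were below those of the other 10 arrays, which lay between -8.62 and -6.44. For how many of all assays this holds was not counted. Such a fall was not limited to the region, as miR-302c-3p outside it was at -5.51 (My5.LV) and -4.39 (My5.CRBN).

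miR-379-5p, the first hairpin of the miR-379/miR-410 side, had a Ct of 30.1, 30.5 and 33.2 in My5.LV cells and of 30.8, 27.9 and 32.6 in My5.CRBN cells without treatment, at 72 h and at 120 h. It fell in both lines (log2 fold change -3.67 and -3.85), by an estimate of -3.76 over both lines (SE 0.62, adjusted p = 0.000493). miR-411-5p, the next hairpin along, 1.25 kilobases away, was at -2.55 and -1.60.
miR-431-5p, opposite to RTL1, had a Ct of 26.4, 26.9 and 29.8 in My5.LV cells and of 26.9, 25.7 and 28.3 in My5.CRBN cells at the same times. It fell in both lines, to -4.03 and -3.42 (-3.73 over both, SE 0.52, adjusted p = 0.00012). The other members opposite to RTL1 were lower by less or near 0, with miR-433-3p at -1.49 and -1.10, miR-432-5p at -1.54 and -2.23, miR-127-3p at -1.36 and 0.13 and miR-127-5p at -0.34 and -0.12. miR-136-5p, too near the cap for the fit, was at -0.70 or below and at -0.23. None of the other 4 was called (miR-432-5p had the lowest adjusted p, 0.0519), and whether they differ from miR-431-5p was not tested.
miR-370-3p, the last member of the miR-127/miR-136 side, fell in both lines (log2 fold change -2.42 and -2.77; -2.60 over both, SE 0.40, adjusted p = 0.000292). Its Ct rose from 24.7 to 26.5 in My5.LV cells and from 24.6 to 25.3 in My5.CRBN cells. miR-323b-5p was at -2.70 and -1.93 (-2.31, SE 0.50, adjusted p = 0.00454), and miR-382-5p at -1.55 and -1.98 (-1.76, SE 0.52, adjusted p = 0.0355).
For miR-323b-5p and miR-382-5p the Ct itself was nearly the same at both times in My5.CRBN cells. There the Ct was 29.8 and 29.7 for miR-323b-5p and 29.7 and 29.5 for miR-382-5p without treatment and at 120 h, whereas the mean Ct of the control wells went from 20.8 to 18.7. With the mean of all detected miRNAs as normalizer in place of the control wells they were at -1.70 and -1.74 there, still past 3 fold.

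**Figure D3:**
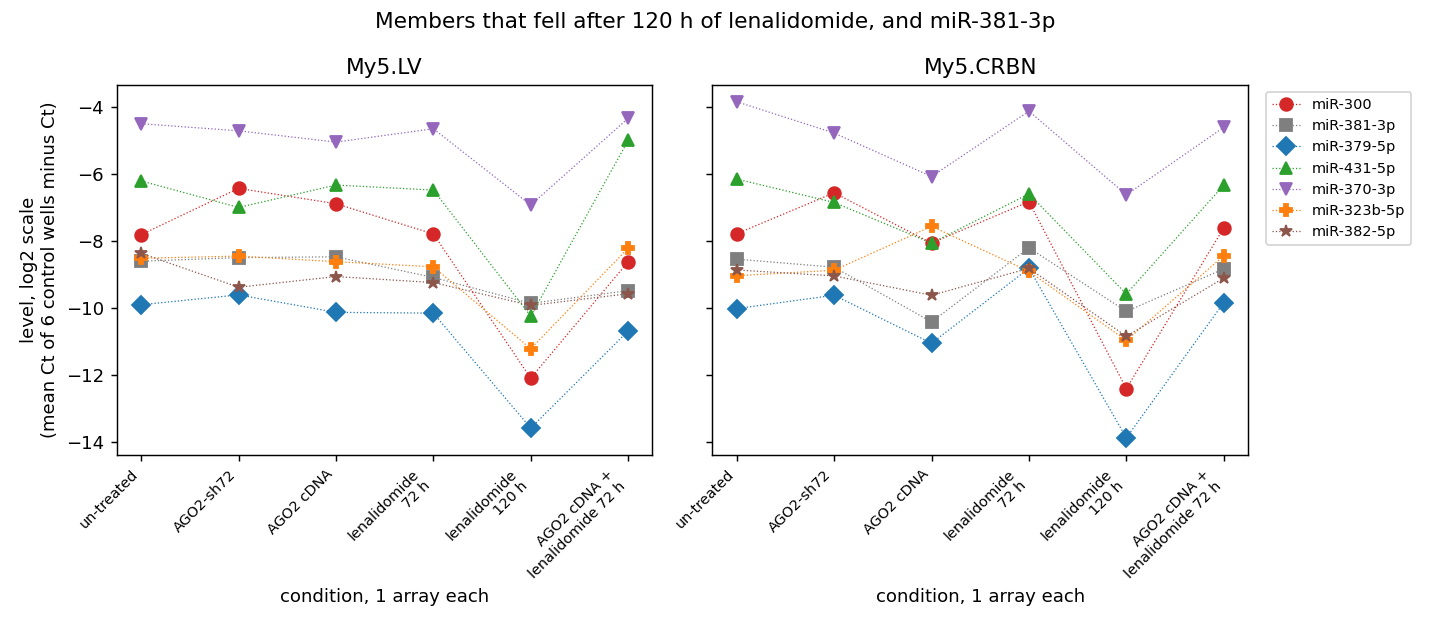
Level (mean Ct of 6 control wells minus Ct, log2 scale) of the 6 members that limma called lower after 120 h of lenalidomide and of miR-381-3p, in the 6 conditions of My5.LV (left) and My5.CRBN cells (right), 1 array per point. Dotted lines only join the points of a miRNA. miR-300 stands at -12.09 and -12.40 at 120 h and between -8.62 and -6.44 elsewhere, and miR-379-5p at -13.58 and -13.87 at 120 h.

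The rest of the region was not lower throughout. At 120 h, 5 of the 25 members measured on both My5.LV arrays and 5 of the 27 measured on both My5.CRBN arrays were above 0. miR-154-5p, the member of the narrowest range over the 12 arrays (0.78 on the log2 scale), was at -0.25 and -0.45, miR-409-3p at 0.18 and -0.62, miR-410-3p at 0.03 and -0.09 and miR-376c-3p at 0.73 and 0.06.
The 2 sides had medians of -1.20 (miR-127/miR-136) and -1.04 (miR-379/miR-410) in My5.LV cells and of -0.18 and -1.16 in My5.CRBN cells. Of the assays for chromosome 14 miRNAs outside the region, 0 of the 4 with a fold passed 3 fold downwards in My5.CRBN cells, and 1 of 5, miR-342-3p, did in My5.LV cells, with a Ct of 24.3 without treatment and 35 at 120 h, while miR-342-5p of the same hairpin was at 0.62.

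**Figure D4:**
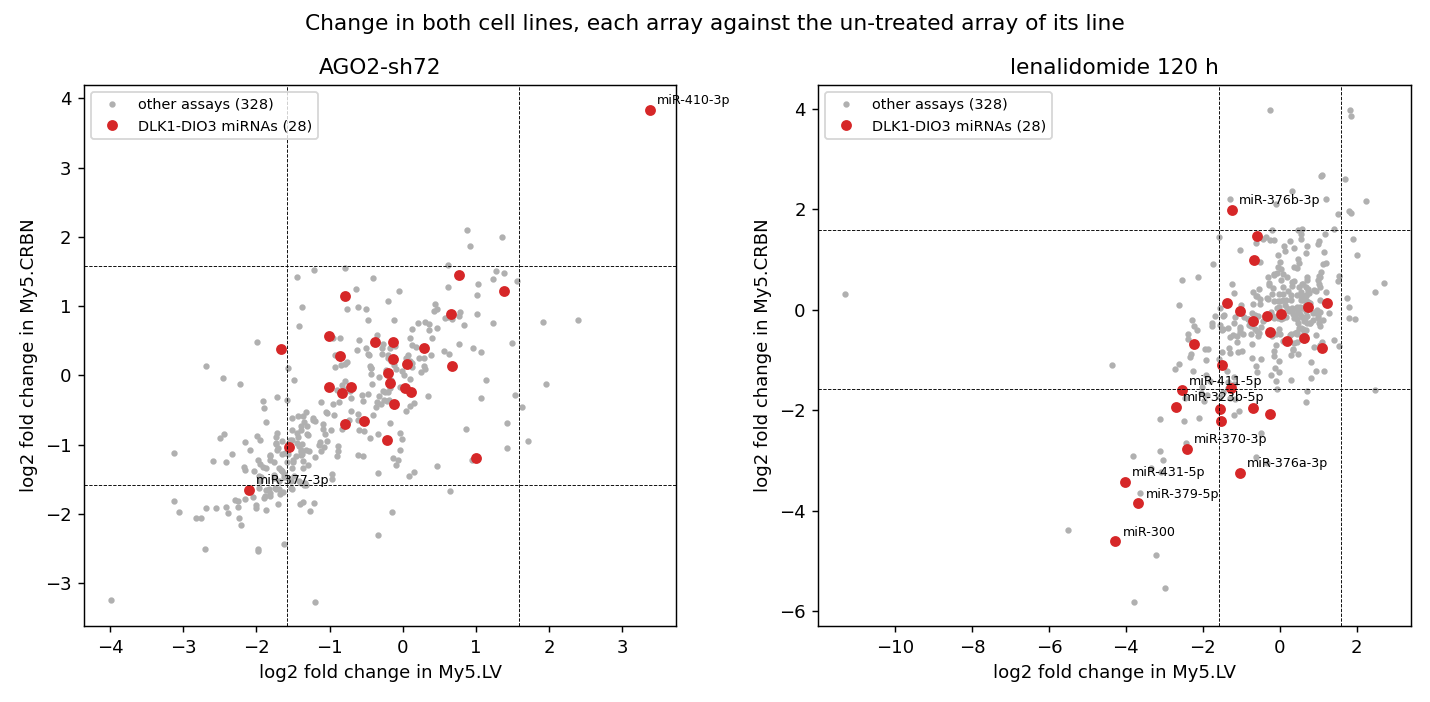
Log2 fold change in My5.LV (horizontal) and My5.CRBN cells (vertical) after AGO2-sh72 (left) and 120 h of lenalidomide (right), each against the un-treated array of its line. Red points are the 28 members and grey points the 328 other assays with a fold in both lines, and dashed lines mark 3 fold. miR-410-3p (3.37 and 3.84) stands alone at the upper right after AGO2-sh72. After lenalidomide miR-300, miR-379-5p and miR-431-5p stand at the lower left, as do assays outside the region such as miR-302c-3p.

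Near copies were not at like values. miR-300 and miR-381-3p share the seed and 19 of 22 bases, and at 120 h miR-381-3p was at -1.25 and -1.56 where miR-300 was at -4.28 and -4.61. The limma estimate for miR-381-3p was -1.41 (SE 0.59, adjusted p = 0.155). After AGO2-sh72 the pair was at 1.38 and 0.11 in My5.LV and at 1.22 and -0.24 in My5.CRBN cells.
miR-376a-3p and miR-376b-3p share 20 of 21 bases and the seed. At 120 h miR-376a-3p was at -1.04 and -3.25 and miR-376b-3p at -1.24 in My5.LV but at 1.99 in My5.CRBN cells, the 1 member at least 3 fold higher there. miR-376c-3p, which shares 19 of 21 bases with miR-376a-3p but has another seed, was at 0.73 and 0.06. No member of the family was called by limma at 120 h, and the adjusted p of miR-376a-3p was 0.0545. How far an assay reads a near copy was not tested. For the arms of a hairpin, miR-127-3p and miR-127-5p were at -1.36 and -0.34 in My5.LV and at 0.13 and -0.12 in My5.CRBN cells at 120 h, and miR-377-3p was at -0.70 (My5.LV) and -1.97 (My5.CRBN), where miR-377-5p reached a Ct of 35 on both 120 h arrays.

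With AGO2 cDNA and 72 h of lenalidomide together, few members passed 3 fold with the 6 control wells as normalizer, and many more with RNU6-2 alone. In My5.LV cells 0 of 28 passed 3 fold upwards and 2 downwards, where 2.47% of all assays were higher and 5.21% lower. These were miR-377-5p (-2.93), near the limit of detection with a Ct of 33.4 and 34.9, and miR-134-5p (-1.73, Ct 28.9 and 29.2). In My5.CRBN cells 0 of 28 were higher and 0 lower, where 4.41% of all assays were higher and 0.826% lower. limma called 0 of 23 members higher and 0 lower, against 0.318% and 0% of the 314 assays, and 0 members reached an unadjusted p of 0.05, where 1.91% of the assays were higher and 4.46% lower. The SD of the control wells in My5.LV cells was 0.68, the widest of the 11 comparisons. With RNU6-2 alone 15 (My5.LV) and 3 (My5.CRBN) members were lower by 3 fold or more, the median in My5.LV cells went from -0.60 to -1.77 over the members and from -0.17 to -1.33 over all assays, and limma called 6 members and 37.9% of the assays lower. The levels of miR-300 on these arrays, -8.62 and -7.61, were above those at 120 h of lenalidomide alone, but the times differ, and AGO2 cDNA with 120 h of lenalidomide was not analysed here.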

How the data were processed

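Total RNA of 12 conditions was converted to cDNA (miScript II RT kit) and measured with miScript miRNA PCR Arrays of 384 wells on an Applied Biosystems instrument. The Ct values, as the authors deposited them, carry no normalization. A second deposited table holds the authors' own fold changes, which were not used here. Ct values above 35 or undetermined were set to 35, and each Ct was subtracted from the mean Ct of 6 small-RNA wells (RNU6-2 and the snoRNAs SNORD96A, SNORD95, SNORD72, SNORD68 and SNORD61). Log2 fold changes are differences of these levels between a treated array and the un-treated array of its line, and 3 fold, a log2 of 1.585, was the limit for counts. Members at 35 on both arrays have no fold and were left out; a member at 35 on 1 array has a bound. With 1 array per condition these counts have no test. Arrays have no depth, and each value rests on 1 well.

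For tests over both lines, limma 3.58.1 in R 4.3.3 (lmFit, then eBayes with a trend) was fitted with treatment and cell line on the 314 assays under Ct 35 on all 12 arrays, with 5 residual degrees of freedom and Benjamini-Hochberg adjustment at 0.05. Nothing says that arrays came from separate cultures. On simulated data for 120 h of lenalidomide, with log2 changes of 3, 54 of 60 changed and 3 of 254 unchanged assays were called. Smaller changes were not simulated, and the noise was drawn for each assay on its own, without shifts shared over an array. miRNA sequences and positions came from RefSeq tables of GRCh38.p14, and the shRNA sequences from the study's supplement. Named members were those past 3 fold and largest in a comparison, those called by limma, arms of 1 hairpin, near copies, and the lowest and highest mean Ct. The alternatives were normalization to the mean of all detected miRNAs or to RNU6-2 only, a cap of 32, members under Ct 30, counting members at the cap, and for limma all assays, no trend, no cell line term and each array left out. The members and lists were chosen with earlier results of these data known. Python 3.11.15, NumPy 2.4.6, pandas 2.3.3 and Matplotlib 3.10.9 were used.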

Additional observations from a re-analysis of the deposited data

Results flagged for a closer look

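In 7 results a member went at least 3 fold one way and at least 2 fold the other way under the same treatment in the other line, or at the other time of lenalidomide in the same line. With 1 array per condition, none of these differences was tested. After AGO2 cDNA miR-485-5p was at 1.13 in My5.LV cells and at -1.61 or below (Ct of 35) in My5.CRBN cells, a difference of 2.74 or more on the log2 scale. After 72 h of lenalidomide miR-377-5p was at -1.20 in My5.LV cells and at 1.66 or above in the My5.CRBN line (difference -2.87 or below), and miR-539-5p at -1.18 or below and 2.96 or above (difference -4.14 or below); both had a Ct of 35 in un-treated My5.CRBN cells. After 120 h miR-376b-3p was at -1.24 in My5.LV cells and 1.99 in the My5.CRBN line (difference -3.23). Between 72 h and 120 h of lenalidomide in My5.CRBN cells, miR-379-5p went from 1.20 to -3.85 (difference 5.05), miR-411-5p from 1.07 to -1.60 (difference 2.67) and miR-485-5p from 1.16 to -2.08 (difference 3.24). Each condition had 1 array, too few to look for a sample that stands apart within a group.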

How the results depend on the processing

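The 6 members lower by 3 fold or more in both lines at 120 h were 4 to 7 in number under the 5 other settings, and limma's 6 were 5 to 8, or 4 to 10 with 1 array left out. miR-410-3p passed 3 fold after AGO2-sh72 in both lines under all 5 settings. The counts after AGO2-sh72 depended on the normalizer, since the median of all assays moved from -0.81 to 0.05 (mean of all detected miRNAs) or -1.79 (RNU6-2 alone) in My5.LV cells. With the mean of all detected miRNAs as normalizer, 4 members were higher and 0 lower after sh72 in each line. In My5.CRBN cells 1 was higher after AGO2 cDNA and 2 after 120 h. In My5.LV cells 1 was lower after AGO2 cDNA with lenalidomide. With this normalizer limma called 2 members higher and 0 lower after sh72, where 6.37% and 7.64% of the 314 assays were. With RNU6-2 alone, 10 (My5.LV) and 2 (My5.CRBN) were lower after sh72, and 15 and 3 after AGO2 cDNA with lenalidomide. In un-treated My5.CRBN against My5.LV cells 1 was lower, and after 120 h 2 were higher in My5.CRBN cells. limma then called 6 members lower after sh72, 1 after AGO2 cDNA and 6 after AGO2 cDNA with lenalidomide. Of the 314 assays it called 57.3%, 3.5% and 37.9% lower there. Over all assays, those past 3 fold were counted only with the 6 control wells and the cap of 35. With a Ct cap of 32, 0 were lower after sh72 in each line, 3 after AGO2 cDNA (My5.CRBN), 5 after 120 h and 1 after AGO2 cDNA with lenalidomide (My5.LV). With that cap 1 was higher after 72 h and 0 after 120 h (My5.CRBN). limma then called 0 members lower after sh72, where 39.2% of the 314 assays were. That cap turned the sign of miR-376b-3p after sh72 in My5.LV (0.14) and of miR-377-5p (-1.34) and miR-539-5p (-0.038) after 72 h in My5.CRBN cells, all with Ct values above it. With only members under Ct 30 on at least 1 array, 0 were lower after sh72 in each line, 4 (My5.LV) and 6 (My5.CRBN) after 120 h and 1 after AGO2 cDNA with lenalidomide (My5.LV), and 2 were higher after 72 h (My5.CRBN); fewer members enter there. Without the cell line term limma called 0 members lower after sh72, where 32.8% of the 314 assays were. Leaving out 1 array at a time gave 0 to 2 members higher and 0 to 1 lower after sh72, 0 to 3 lower after AGO2 cDNA and 4 to 10 lower after 120 h. The cause of these shifts was not tested. Members at the cap on both arrays, when counted, moved no count by over 1.5 times, nor did all assays or no trend of variance in limma. The cell line term already pairs each treated array with the un-treated array of its line. No paired analysis was possible by replicate number, because the labels give none and each condition has 1 array. Levels near a Ct of 35 are limited by detection, and 6 of the 29 members reached it.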
